A study of Nothobranchius furzeri with 15 samples.

Results

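In the annual killifish Nothobranchius furzeri, 105 genes present in 2 copies had 1 copy highest in 1 of the tissues brain, liver and skin and the other copy highest in another. The copies are entries of a killifish transcript catalogue that carry the same zebrafish gene identifier. Of the 15476 identifiers in the catalogue, 1997 belong to exactly 2 entries, and the 105 pairs, with 210 entries, are 5.26% of these. A pair was taken when each entry averaged at least 5 counts-per-million (CPM, the count divided by the library's total) in its highest tissue, that level was at least 2-fold over each other tissue, and the highest tissues of the entries differed. The levels that chose the pairs are therefore given as a description, with no test. Brain and skin were the tissues of 71 pairs, brain and liver of 19, and liver and skin of 15.

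The series holds RNA sequencing of 15 samples, 5 each of brain, liver and skin, from fish of the strain GRZ, a short-lived laboratory strain, at an age of 12 weeks and with no treatment given in the labels. Total RNA of dissected organs was sequenced, so fewer cells of a type and less RNA per cell cannot be told apart in any level below. Brain and liver libraries carry the numbers 10, 11, 13, 14 and 15 and skin libraries the numbers 5, 6, 7, 13 and 14, and values are listed in that order throughout. Counts on the catalogue summed to between 17.7 and 30.8 M per library, so 3 counts, taken here as the floor of detection, equal 0.0974 to 0.170 CPM. Neither the files nor the reference gene table pair the catalogue's or the zebrafish identifiers with gene names, and 0 identifiers matched that table. Copies are therefore given by identifier, no role is assigned to any of them, and the tissue labels were not checked against marker genes.

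As background, bony fishes of the teleost group descend from an ancestor whose whole genome was duplicated, and part of the resulting gene pairs has been retained, next to pairs that arose later from local duplications. Retained copies are known to differ at times in the tissues that use them, either because they share out the uses of the ancestral gene or because a copy has gained a use. Entries with the same zebrafish identifier can be such copies, but they can also be parts or forms of 1 gene, and the sources used here do not tell these apart. How reads that match both copies were counted is not given either, so values of near-identical copies are uncertain.

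Having both copies clearly tied to a tissue was the exception among 2-copy genes, and the same tissue was the usual case. In 520 of the 1997 pairs both entries met the limits on level and fold, in 864 only 1 entry did and in 613 neither did. The 105 pairs with different tissues made up 20.2% of the 520, and the other 415 had both entries highest in brain (313 pairs), in skin (84 pairs) or in liver (18 pairs). Seen by tissue, different-tissue pairs held 34 of 70 liver entries (48.6%), 86 of 254 skin entries (33.9%) and 90 of 716 brain entries (12.6%) among pairs with both entries within the limits. The partner of a liver entry was about as often in another tissue as in liver, whereas most brain entries had their partner in brain. These shares depend on how many entries each tissue has, 716 for brain, 254 for skin and 70 for liver. With few liver entries, few partners in liver are available, so the shares do not rank the tissues by how far copies diverge. They also depend on the scaling of libraries, described below. The 105 pairs were not unusual in level or in fold. Their entries had a median of 52.5 CPM in the highest tissue and of 4.26-fold over the next tissue, against 54.7 CPM and 4.75-fold for all 8273 catalogue entries within the same limits.

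In their highest tissue, 192 of the 210 entries averaged at least 10 CPM and 63 at least 100 CPM. Brain copies ran from 5.26 to 1026 CPM with a median of 52.5 CPM, liver copies from 6.07 to 1168 CPM with a median of 63.2 CPM, and skin copies from 7.45 to 5896 CPM with a median of 46.7 CPM. Over the next tissue, 112 entries were at least 4-fold and 39 at least 10-fold higher, but both copies were at least 4-fold higher in 30 pairs and at least 10-fold higher in 4. The pairs closest to the limit on level had a lower copy at 5.26 and 5.86 CPM, and the nearest ones left out were at 4.94 and 4.88 CPM. The pairs closest to the limit on fold had a smaller fold of 2.0003 and 2.004, and the nearest ones left out had 1.998 and 1.996.

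Most copies were separated from the other tissues in every library, as were most entries within the same limits. In 188 of the 210 entries (89.5%) all 5 libraries of the highest tissue lay above all 10 others, against 92% of all entries within the limits. In 84 pairs this held for both copies, and the share among other pairs was not computed. Brain copies were free of overlap in 85 of 90 (94.4%, against 94.2% of all brain entries within the limits), skin copies in 79 of 86 (91.9%, against 90.6%), and liver copies in 24 of 34 (70.6%, against 80.8%). The median coefficient of variation between the libraries of the highest tissue was 0.156 for brain, 0.267 for skin and 0.320 for liver copies. Over all entries within the limits it was 0.151, 0.281 and 0.275, so the lower spread in brain was not particular to the copies.

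The number of pairs in each combination depended on how libraries were scaled. TMM factors, which adjust library totals to the bulk of the genes, averaged 1.68 in brain, 0.598 in liver and 1.01 in skin. With TMM-scaled CPM in place of plain CPM the same rule found 118 pairs, 44 of brain and skin, 42 of brain and liver and 32 of liver and skin. Of the 105 pairs 52 were among them, namely 28 of 71, 12 of 19 and 12 of 15 in the same order of combinations. DESeq2 size factors gave 121 pairs, again with 52 of the 105. For a given pair, the ratio of the copies within a library is free of this choice and is used further on, but the set of pairs is not.

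By separation, brain and liver pairs were led by an identifier whose copies each far outweighed the other in their own tissue, with both low in skin. Pairs are ranked by separation, the smaller of the log2 folds of its copies over their next tissue with 0.5 CPM added. In the pair ENSDARG00000074533, which ranked first with a separation of 2.71, the brain copy Nofu_gene_3_0016370 had 11.5, 20.8, 17.6, 24.7 and 18.0 CPM in brain, 1.59, 1.77, 1.07, 1.30 and 1.93 CPM in liver and 2.78, 1.92, 2.25, 1.75 and 3.30 CPM in skin. Its liver copy Nofu_gene_3_0016371 had 367, 41.1, 47.7, 13.4 and 89.7 CPM in liver, 0.357, 0.255, 0.383, 0.347 and 0.172 CPM in brain and 2.44, 1.49, 1.44, 1.53 and 1.13 CPM in skin. No library of another tissue reached the lowest library of the highest tissue for either copy, but the liver copy varied strongly within liver, where library 10 held 65.7% of the sum over the 5 libraries.

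The pair ENSDARG00000059729, the next in rank, was steadier. Its liver copy Nofu_gene_3_0014035 had 296, 560.4, 438, 334 and 628 CPM in liver, 5.13, 4.13, 5.46, 5.11 and 3.79 CPM in brain and 5.21, 3.21, 3.69, 3.78 and 4.95 CPM in skin. Its brain copy Nofu_gene_3_0015402 had 31.7, 43.9, 33.9, 42.6 and 41.1 CPM in brain, 1.51, 1.01, 0.632, 2.26 and 0.901 CPM in liver and 8.33, 4.84, 8.51, 5.13 and 7.26 CPM in skin. Both copies were free of overlap between tissues, and the liver copy was equally low in brain and skin. The next 6 brain and liver pairs by separation had brain copies of 15.9 to 311 CPM and liver copies of 16.9 to 1168 CPM in their highest tissue, without overlap in 6 of 6 brain copies and 5 of 6 liver copies.

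Among brain and liver pairs, the highest levels for both copies were in ENSDARG00000005924 and ENSDARG00000056108, which were chosen by the level of the lower copy. The liver copy of the first, Nofu_gene_3_0015516, had 596, 532, 452, 455 and 531 CPM in liver, 0.942, 0.817, 1.63, 0.645 and 0.431 CPM in brain and 0.566, 0.0480, 1.26, 0.630 and 0.943 CPM in skin. Its brain copy Nofu_gene_3_0015517 had 399, 441, 409, 401 and 405 CPM in brain, 16, 12.8, 10.7, 12.0 and 16.3 CPM in liver and 216, 145, 140.0, 157 and 172 CPM in skin. The liver copy was thus restricted to liver, while the brain copy was low in liver alone. On TMM-scaled CPM the brain copy was less than 2-fold over skin, with a log2 fold of 0.57 against 1.30 on plain CPM. In ENSDARG00000056108 the liver copy Nofu_gene_3_0011498 averaged 704 ± 216 CPM in liver, 315 ± 41.9 CPM in brain and 190.3 ± 6.04 CPM in skin (SD, n = 5 each). Its brain copy Nofu_gene_3_0011497 averaged 183 ± 30.2 CPM in brain, 2.25 ± 3.40 CPM in liver and 38.4 ± 13.4 CPM in skin. The liver copy was thus present in all 3 tissues and, on plain CPM, was little more than 2-fold higher in liver than in brain. Its log2 fold over the next tissue was 1.16 on plain CPM and 2.67 on TMM-scaled CPM. Per length, on the deposited RPKM, the brain copy led in all 5 brain libraries and made up 62.8% of the pair in brain.

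**Figure D1:**
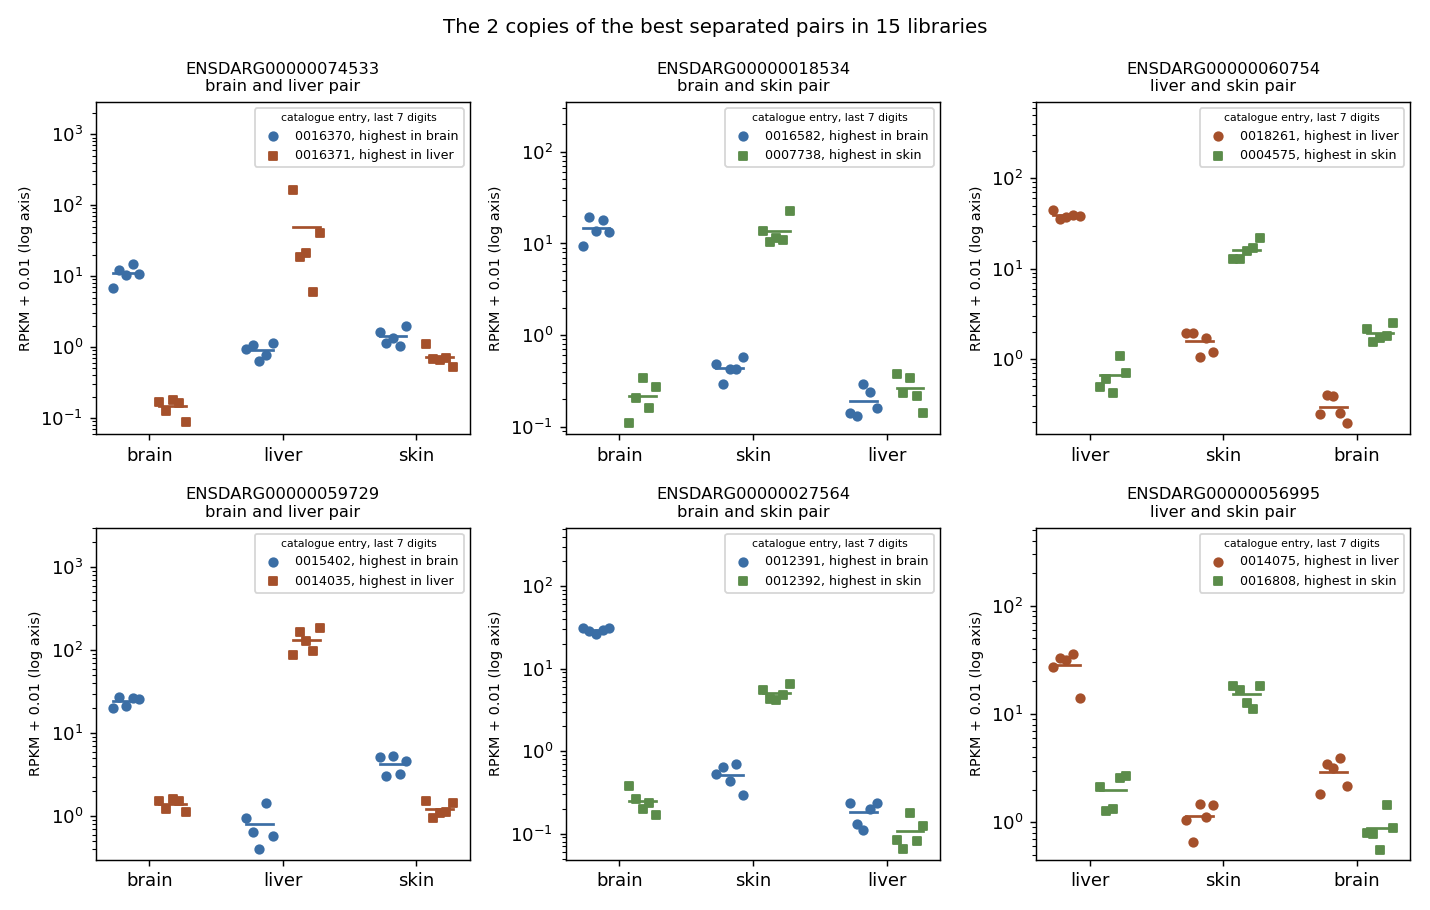
RPKM with 0.01 added (log axis) of both copies of the first 2 pairs by separation in each combination of tissues, with 1 point per library and the mean of 5 libraries as a line; colour and symbol mark the tissue where the copy was highest. In each panel the copy of the left tissue lies above its partner there in all 5 libraries and below it in all 5 libraries of the middle tissue, and the right tissue shows the copies where neither was highest.

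By separation, the most sharply divided pair was a brain and skin pair, from the combination with the most pairs. In ENSDARG00000018534, with a separation of 4.48, the brain copy Nofu_gene_3_0016582 had 45.0, 94.4, 66.7, 88.2 and 64.3 CPM in brain, 2.32, 1.39, 2.03, 2.02 and 2.74 CPM in skin and 0.637, 0.591, 1.36, 1.11 and 0.729 CPM in liver. Its skin copy Nofu_gene_3_0007738 had 18.0, 13.7, 14.9, 14.2 and 29.3 CPM in skin, 0.130, 0.255, 0.431, 0.198 and 0.345 CPM in brain and 0.478, 0.295, 0.438, 0.268 and 0.172 CPM in liver. Outside skin, the skin copy stood close to the floor. The pair ENSDARG00000027564 was similar. Its brain copy Nofu_gene_3_0012391 had 120.2, 111, 101, 114 and 118 CPM in brain, 1.98, 2.40, 1.62, 2.61 and 1.08 CPM in skin and 0.876, 0.464, 0.389, 0.729 and 0.858 CPM in liver. Its skin copy Nofu_gene_3_0012392 had 20.6, 16.2, 15.5, 17.9 and 24.7 CPM in skin, 1.4, 0.970, 0.719, 0.843 and 0.603 CPM in brain and 0.279, 0.211, 0.632, 0.268 and 0.429 CPM in liver. In both pairs the liver, where neither copy was highest, had little of either.

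The next 6 brain and skin pairs by separation had brain copies of 24.7 to 427 CPM and skin copies of 9.40 to 5896 CPM, all 12 without overlap between tissues. The top of that range was Nofu_gene_3_0003922, the skin copy of ENSDARG00000005762, with 5841, 7265, 5224, 7428 and 3722 CPM in skin, 20.9, 21.9, 17.9, 33.5 and 31.6 CPM in brain and 13.2, 3.04, 13.1, 2.80 and 12.1 CPM in liver. Its brain copy Nofu_gene_3_0003921 reached only 44.1, 49.1, 34.8, 48.9 and 48.7 CPM in brain. This skin copy had the highest CPM of the 210 entries.

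In the abundant brain and skin pair ENSDARG00000088318, both copies were present in all 3 tissues. The skin copy Nofu_gene_3_0018883 averaged 581 ± 151 CPM in skin, 191 ± 27.4 CPM in brain and 135 ± 67.2 CPM in liver, and the brain copy Nofu_gene_3_0018882 averaged 233 ± 20.4 CPM in brain, 65.5 ± 5.62 CPM in skin and 26.5 ± 3.24 CPM in liver (SD, n = 5 each). The next pair by level, ENSDARG00000003931, varied within tissues. Its brain copy Nofu_gene_3_0003819 had 21.1, 429.5, 528, 432 and 19.1 CPM in brain, and at most 6.62 CPM in any skin library and 4.62 CPM in any liver library. Its skin copy Nofu_gene_3_0003820 had 85.7, 65.3, 458, 73.1 and 99.4 CPM in skin, 52.9, 62.6, 64.9, 59.4 and 49.9 CPM in brain and 66.9, 55.4, 43.9, 114 and 70.1 CPM in liver. Brain libraries 10 and 15 were thus more than 10-fold under the other brain libraries for the first copy, and skin library 7 was far above the other skin libraries for the second. With skin 7 and liver 14 left out, the log2 fold of the skin copy over its next tissue was 0.45 in place of 1.15, under the 2-fold limit.

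Liver and skin pairs were the fewest. Their first 8 separations were 1.85 to 2.79, against 2.46 to 4.48 for brain and skin pairs and 1.51 to 2.71 for brain and liver pairs. In that order, the first 8 come from 15, 71 and 19 pairs, so these ranges do not rank the combinations. Over all pairs, the median shift in copy ratio, given below, was smallest for brain and skin pairs. In ENSDARG00000060754, with a separation of 2.79, the liver copy Nofu_gene_3_0018261 had 211, 169, 177, 187 and 179 CPM in liver, 9.06, 9.11, 4.91, 8.05 and 5.61 CPM in skin and 1.10, 1.84, 1.77, 1.14 and 0.862 CPM in brain. Its skin copy Nofu_gene_3_0004575 had 13.7, 13.8, 16.9, 18.4 and 23.3 CPM in skin, 0.518, 0.633, 0.438, 1.15 and 0.729 CPM in liver and 2.31, 1.63, 1.82, 1.89 and 2.67 CPM in brain. Libraries of the same tissue were close together for both copies. In ENSDARG00000056995 the liver copy Nofu_gene_3_0014075 had 39.8, 48.4, 46.1, 52.5 and 20.7 CPM in liver, 1.53, 0.959, 2.16, 1.62 and 2.12 CPM in skin and 2.66, 5.05, 4.65, 5.76 and 3.15 CPM in brain. Its skin copy Nofu_gene_3_0016808 had 30.2, 27.9, 21.2, 18.4 and 30.5 CPM in skin, 3.50, 2.11, 2.19, 4.29 and 4.46 CPM in liver and 1.30, 1.28, 0.911, 2.38 and 1.47 CPM in brain. The next 6 liver and skin pairs had liver copies of 6.07 to 56.5 CPM, 4 of 6 without overlap, and skin copies of 8.37 to 307 CPM, 6 of 6 without overlap.

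The most abundant liver and skin pair, ENSDARG00000004757, was strongly unequal. The skin copy Nofu_gene_3_0019731 had 3153, 4665, 2863, 3287 and 2733 CPM in skin, 765, 1051, 1091, 1055 and 1455 CPM in liver and 1231, 880.0, 888, 742 and 954 CPM in brain. The liver copy Nofu_gene_3_0019732 had 124, 114, 109.8, 87.9 and 345 CPM in liver, 13.3, 32.4, 22.7, 15.4 and 17.0 CPM in skin and 0.227, 0.255, 0.719, 0.695 and 0.259 CPM in brain. Per length, on the deposited RPKM, the skin copy led in all 5 liver libraries as well. On TMM-scaled CPM its log2 fold over the next tissue was 0.91, under the 2-fold limit, in place of 1.62. In ENSDARG00000043180 the liver copy Nofu_gene_3_0007485 averaged 208 ± 67.4 CPM in liver, 19.7 ± 8.54 CPM in skin and 51.0 ± 8.0 CPM in brain, and the skin copy Nofu_gene_3_0007486 averaged 146 ± 35.6 CPM in skin, 60.9 ± 19.3 CPM in liver and 5.08 ± 0.665 CPM in brain (SD, n = 5 each). The log2 fold of that skin copy was 1.26 on plain CPM and 0.50 on TMM-scaled CPM.

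As groups, the copies took a small part of all counts, and the summed part was largest for skin copies with a brain partner. These 71 skin copies held 1.58 ± 0.159% of a skin library's counts, 0.196 ± 0.00610% of a brain library's and 0.127 ± 0.0171% of a liver library's, while their brain partners held 0.652 ± 0.0429% in brain, 0.166 ± 0.0119% in skin and 0.0903 ± 0.0142% in liver (SD, n = 5 libraries each). The 19 liver copies with a brain partner held 0.461 ± 0.0714% in liver, 0.0627 ± 0.00480% in brain and 0.0501 ± 0.00262% in skin, and their brain partners 0.163 ± 0.00904% in brain, 0.0134 ± 0.00431% in liver and 0.0386 ± 0.00291% in skin. The 15 skin copies with a liver partner held 0.417 ± 0.0765% in skin, 0.128 ± 0.0232% in liver and 0.104 ± 0.0179% in brain, and in their liver partners the shares were 0.119 ± 0.00786% for liver, 0.0238 ± 0.00415% for skin and 0.0206 ± 0.00162% for brain. The rule sets which tissue is highest in each of these groups. The sums also follow the number of copies in a group and single abundant entries, such as Nofu_gene_3_0003922 at a mean of 5896 CPM in skin. They do not rank the groups by level per copy.

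The balance of the copies within a library was compared per length, on the deposited RPKM (reads per kilobase of entry and per-million counted reads). This ratio is unaffected by scaling between libraries, although the choice of the pairs depends on it. The rule fixes the direction in which the ratio moves and a shift of at least 4-fold in the tissue means. It does not fix which copy is the more abundant in either tissue, but a shift of that size makes a change of the leading copy likely. The counts of such changes are therefore a description, and no share of other pairs between the same tissues was computed. In 85 of the 105 pairs (81.0%) the more abundant copy switched between the tissues of the pair, so that each copy led in its own tissue. This was so in 59 of 71 brain and skin pairs, 15 of 19 brain and liver pairs and 11 of 15 liver and skin pairs. Taken library by library, 68 pairs switched with all 5 libraries of each tissue on the same side, namely 47, 14 and 7 in the same order of combinations. On CPM in place of RPKM, 78 of the 105 pairs switched (74.3%). Of the 118 pairs that the rule found on TMM-scaled CPM, 85 switched on RPKM (72.0%). With the 105 pairs kept as chosen and not chosen again, leaving out any library left the number of switching pairs at 84 or 85.

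The other 20 pairs had the same leading copy in both tissues. In 7 pairs the copy of the first-named tissue led in both, and in 13 the copy of the second-named tissue did, the order of names being brain, liver, skin. In ENSDARG00000004757, described above, the liver copy made up 12.1% of the pair's RPKM in liver and 0.575% in skin. In ENSDARG00000088318 the brain copy made up 38.8% in brain and 5.53% in skin. The use of such a pair changed by tissue without a change in the leading copy.

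**Figure D2:**
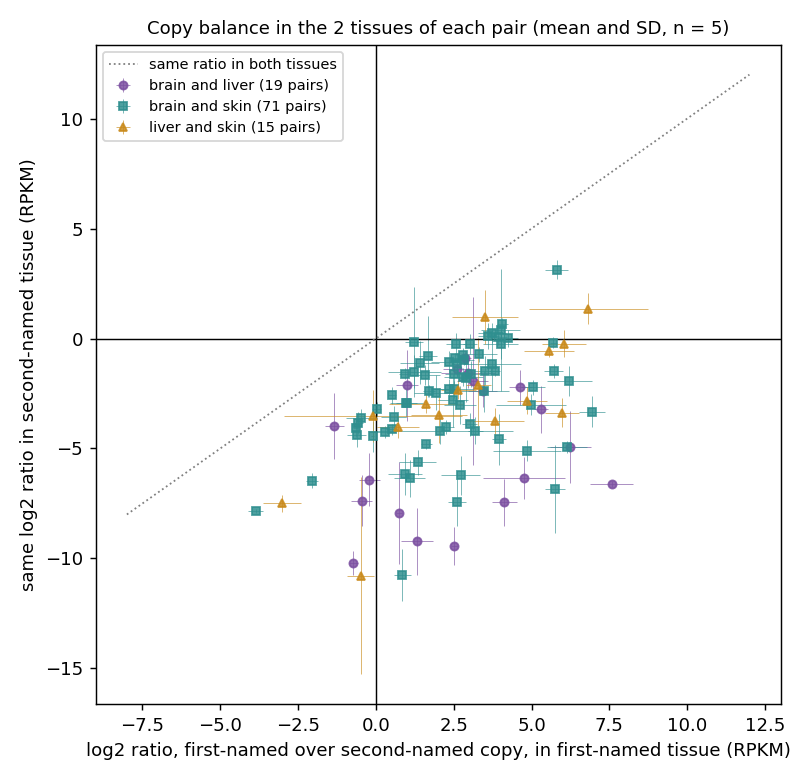
Mean log2 ratio of the copies' RPKM with 0.01 added, copy of the first-named tissue over copy of the second-named tissue, in the first-named tissue (x axis) and in the second-named tissue (y axis), with SD over 5 libraries, for 105 pairs. All points lie under the dotted line of equal ratio, a direction that the rule sets for the tissue means; most lie in the lower right part, where each copy leads in its own tissue.

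Pairs were mostly lopsided in both of their tissues, and in the third tissue they went either way. The copy of the first-named tissue made up a median of 85.9% of the pair's RPKM in that tissue, 11.7% in the tissue of its partner and 47.6% in the third tissue. Brain and liver pairs were the most extreme in the partner's tissue, where the brain copy made up a median of 1.79% of the pair in liver, after 87.8% in brain. For brain and skin pairs the brain copy made up 85.8% in brain and 16.1% in skin, and for liver and skin pairs the liver copy made up 87.8% in liver and 11.4% in skin. In the third tissue, the copy of the first-named tissue led in 50 pairs and that of the second-named tissue in 55. The median near 50% in the third tissue is a balance of such pairs, since only 38 of the 105 had copies within 2-fold of each other there and 53 were at least 4-fold apart. In ENSDARG00000005924 the brain copy made up 99.4% of the pair's RPKM in brain, 1.01% in liver and 98.9% in skin, and in ENSDARG00000060754 the share of the liver copy was 98.4% for liver, 8.86% for skin and 12.9% for brain.

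The size of the shift in copy ratio between the tissues of a pair had a median of 4.74 on the log2 scale and ran from 1.38 to 14.2. By combination the median shift was 6.92 for brain and liver pairs, 5.47 for liver and skin pairs and 4.41 for brain and skin pairs. The largest shift, 14.2, was in a brain and liver pair, and the largest of a brain and skin pair was 12.6. In 38 pairs the shift was at least 64-fold. In 101 of the 105 pairs the ratios of the 5 libraries of the first-named tissue did not overlap those of the second. This was 70 of 71 for brain and skin, against 62.5% of the 1074 pairs outside the 105 with both copies at 5 CPM or more in some tissue. It was 18 of 19 for brain and liver, against 59.7%, and 13 of 15 for liver and skin, against 44.5%. The rule requires a shift in the tissue means of CPM, so these values describe its size, and nothing is read from the counts.

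Pairs that were highest in the same tissue also shifted their copy ratio. Over any of the 3 comparisons of tissues, the largest shift was at least 4-fold in 105 of 105 different-tissue pairs, in 255 of 415 same-tissue pairs (61.4%), and in 403 of 659 other pairs with both copies at 5 CPM or more in some tissue (61.2%). The leading copy differed between some tissues in 88 of 105 different-tissue pairs (83.8%), in 199 of 415 same-tissue pairs (48.0%) and in 533 of the 1074 pairs that are the same-tissue and other pairs together (49.6%). The rule sets a shift of this size in the tissue means of CPM for the different-tissue pairs. On the mean log2 ratio used here, ENSDARG00000037598 reached it only in a comparison with the third tissue. A change of the leading copy was thus present in both kinds of pair.

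**Figure D3:**
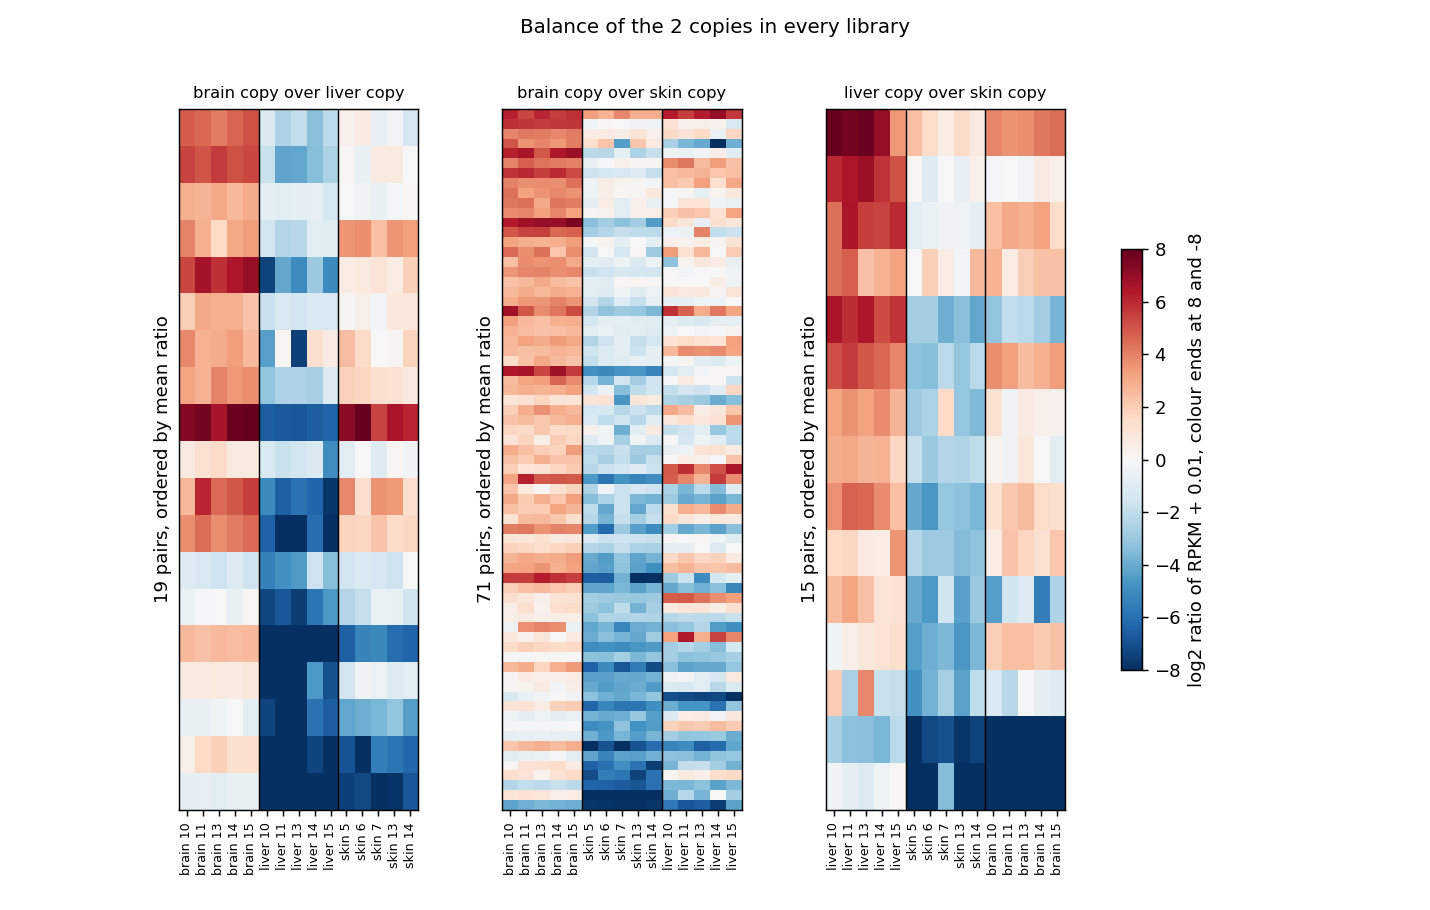
Log2 ratio of the copies' RPKM with 0.01 added in each of 15 libraries (columns) for every pair (rows), by combination of tissues; red marks the copy of the first-named tissue leading and blue its partner, and the colour scale ends at 8 and -8. The block of the first-named tissue is mostly red, that of the second-named tissue mostly blue, and the third block mixed, with libraries of a tissue alike in most rows.

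Between the tissues where an entry was not highest, the rule set no direction, but it capped the level of both on plain CPM. On the TMM scale that cap differs between tissues. The calls are therefore not independent of the rule, and they are given beside other entries within the same limits. For each entry, the tissue of its partner was compared with the third tissue, by edgeR's quasi-likelihood test over all 16611 entries tested with Benjamini-Hochberg adjustment and a threshold of 0.05. Of 209 member entries tested, 76 were higher and 73 lower in the partner's tissue, and 60 were not called. On plain library sizes, without TMM, 99 were higher and 40 lower. Without TMM the median log2 difference over all entries tested was 1.49 for brain over liver, 0.76 for brain over skin and 0.78 for skin over liver, against 0.01, 0.03 and 0.03 with TMM. In the other entries within the limits and highest in skin, the median for brain over liver was 0.61 without TMM and -0.88 with TMM.

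Brain copies with a skin partner were among the largest groups and were more often higher in the partner's tissue than lower. In skin over liver, 36 of 71 rose (50.7%) and 18 fell (25.4%), against 31.3% and 24.9% of other entries within the limits and highest in brain, and 33.5% and 29.3% of all entries tested. Without TMM, 47 rose and 7 fell, against 56.7% and 4.97% of those other brain entries. The skin copies of these pairs, compared in brain over liver, rose in 18 of 71 (25.4%) and fell in 35 (49.3%), against 17.3% and 52.3% of other skin entries and 37.8% and 36% of all entries. Without TMM they rose in 37 and fell in 9, against 47.7% and 16.7% of other skin entries.

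For brain and liver pairs, the brain copies in liver over skin rose in 3 of 19 and fell in 7, against 24.9% and 31.3% of other brain entries. Without TMM, 0 rose and 12 fell, against 4.97% and 56.7%. Their liver partners in brain over skin rose in 0 of 19 and fell in 11 (57.9%), against 10.2% and 45.5% of other liver entries. At an unadjusted p under 0.05 edgeR had 0 of them higher, and DESeq2 called 0 higher. Without TMM, 3 of these liver copies rose and 5 fell, against 24.5% and 28.6% of other liver entries and 54.3% and 22.9% of all entries. For liver and skin pairs, the liver copies in skin over brain rose in 8 of 15 and fell in 1, against 45.5% and 10.2% of other liver entries, and 5 rose and 2 fell when skin 7 was left out. Without TMM, 7 rose and 4 fell, against 28.6% and 24.5%. Their skin partners in liver over brain rose in 11 of the 14 tested and fell in 1, against 52.3% and 17.3% of other skin entries. Without TMM 5 rose and 3 fell, against 16.7% and 47.7%. Groups of 14 to 19 entries leave these shares imprecise, and no difference between members and other entries was tested.

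**Figure D4:**
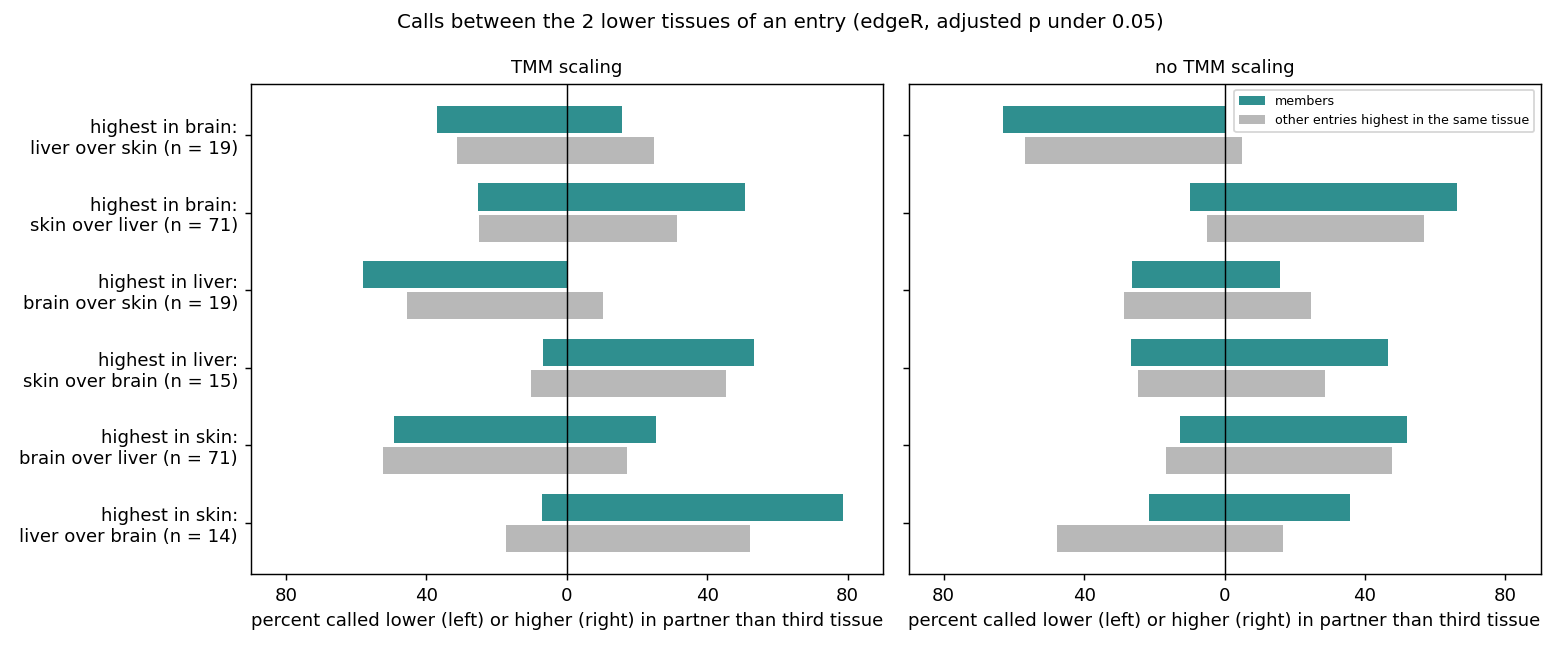
Percent of entries called higher (right) or lower (left) in the partner's tissue than in the third tissue by edgeR at an adjusted p under 0.05, for members and for other entries within the limits and highest in the same tissue, with TMM scaling (left panel) and without (right panel). The brain copies of brain and skin pairs show 50.7% higher against 31.3% of other brain entries with TMM, and the balance of higher and lower calls moves between the panels in most groups.

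Of the 5 entries with the largest rise in the partner's tissue, 3 rested on several libraries. The liver copy Nofu_gene_3_0019732 of ENSDARG00000004757 was higher in skin than in brain by 6.32 ± 0.48 on the log2 scale (SE, edgeR adjusted p = 5.33e-09), with TMM-scaled levels of 12.7 to 36.1 CPM in the skin libraries and 0.138 to 0.440 CPM in the brain libraries. The brain copy Nofu_gene_3_0018049 of ENSDARG00000051824 was higher in skin than in liver by 5.26 ± 0.30 (edgeR adjusted p = 3.33e-10), with 9.59 to 14.4 CPM in the skin libraries and 0.0634 to 0.624 CPM in the liver libraries, close to the floor. Every library of the partner's tissue was above every library of the third tissue for both entries. Nofu_gene_3_0007087, the skin copy of ENSDARG00000095378, had 2.49 to 5.42 CPM in brain and between 0 and 0.178 CPM in liver, where its counts were too few for a fold. The rises of Nofu_gene_3_0012314 (6.98 ± 2.00, edgeR adjusted p = 0.00535) and Nofu_gene_3_0000574 (6.69 ± 1.70, edgeR adjusted p = 0.00227), both in skin over brain, were not called without skin 7. Without that library they were 1.94 and 0.73, with adjusted p of 0.297 and 0.421.

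The largest falls were not all equally steady. Nofu_gene_3_0016397, the skin copy of ENSDARG00000006240, was lower in brain than in liver by -3.61 ± 0.22 on the log2 scale (SE, edgeR adjusted p = 3.43e-10), at TMM-scaled levels of 0.298 to 0.498 CPM in brain and 3.74 to 5.44 CPM in liver. Nofu_gene_3_0015517, the brain copy of ENSDARG00000005924, was lower in liver than in skin by -2.86 ± 0.16 (edgeR adjusted p = 2.41e-10), with 19.6 to 28.6 CPM in liver and 139 to 208 CPM in skin. The groups did not overlap for either. Nofu_gene_3_0011497, the brain copy of ENSDARG00000056108, fell by 3.37 in liver against skin (SE 0.69, edgeR adjusted p = 0.000514), and Nofu_gene_3_0016371, the liver copy of ENSDARG00000074533, fell by 3.10 in brain against skin (SE 0.81, edgeR adjusted p = 0.00278). Within liver, Nofu_gene_3_0011497 varied, at a TMM-scaled mean of 3.70 CPM with an SD of 5.63. The fall of Nofu_gene_3_0003334 in brain against liver, -3.18 ± 1.33 with an edgeR adjusted p of 0.0408, was no longer called without TMM, at -1.71 and an adjusted p of 0.216, without liver 14, at -0.95 and an adjusted p of 0.472, or without any of the brain libraries, at -3.06 to -3.32 and an adjusted p of 0.0620 to 0.0774.

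Single libraries carried a small group of copies. In 12 of the 210 entries, 1 library held more than 50% of the CPM sum over the 5 libraries of the highest tissue. These were 0 of 90 brain copies, 7 of 34 liver copies (20.6%, against 10.1% of all liver entries within the limits) and 5 of 86 skin copies (5.81%, against 4.90% of skin entries). Skin 7 was that library for all 5 skin copies. For liver copies it was liver 15 in 3, liver 13 in 2, and liver 10 and liver 14 in 1 each. The skin copies carried by skin 7 were Nofu_gene_3_0012310, Nofu_gene_3_0003334, Nofu_gene_3_0013572, Nofu_gene_3_0013698 and Nofu_gene_3_0003820, with 98.9%, 92.8%, 91.4%, 72.5% and 58.6% of the sum in it. Among liver libraries, liver 14 was the highest for all 5 of them, at 25.1, 36.0, 25.2, 20.4 and 114 CPM in the same order, while the other liver libraries had at most 3.30, 3.56, 11.8, 11.7 and 70.1 CPM. What sets skin 7 and liver 14 apart was not tested.

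The pair ENSDARG00000093193 rested on these libraries for both copies. The liver copy Nofu_gene_3_0012314 had 2.67, 1.69, 3.06, 101 and 18.4 CPM in liver, 0, 0.240, 60.9, 0.180 and 1.08 CPM in skin and at most 0.198 CPM in brain. The skin copy Nofu_gene_3_0012310 had 0, 0.0959, 67.3, 0.360 and 0.283 CPM in skin, 0.199, 0.0844, 1.02, 25.1 and 3.30 CPM in liver and at most 0.0510 CPM in brain. Both copies were high in skin 7 and liver 14 together, so their division between liver and skin is a matter of degree. By contrast, Nofu_gene_3_0006263, the liver copy of ENSDARG00000062471, had 209 CPM in liver 13 and 27.2 CPM in liver 10, and at most 0.718 CPM in the other liver libraries.

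**Figure D5:**
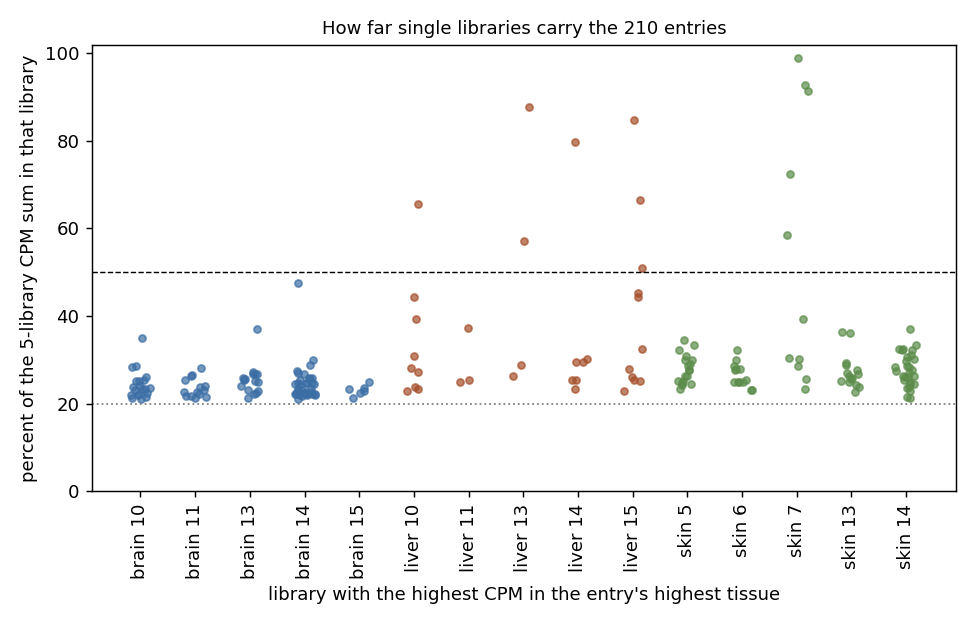
Percent of the CPM sum over the 5 libraries of an entry's highest tissue that was in its largest library, for 210 entries placed at that library; 20 would be an even share (dotted line), and the dashed line marks 50. No brain copy is above 50, and all 5 skin copies above it are at skin 7.

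Leaving out single libraries changed which pairs met the rule. The rule found 100 to 112 pairs when each of the 15 libraries was left out in turn, and 78 of the 105 pairs were found every time, namely 53 of 71 for brain and skin, 14 of 19 for brain and liver and 11 of 15 for liver and skin. Leaving out skin 7 had the largest effect, with 11 pairs lost, of which 10 were brain and skin pairs. With skin 7 and liver 14 left out together, 92 of the 105 pairs were found among 99.

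The edgeR fit also covered the contrast that the rule used, an entry's highest tissue over its partner's. It called 196 entries higher in their highest tissue at an adjusted p under 0.05, beside 29.3% to 37.8% of all entries tested in a given direction. Since the rule chose the entries on this contrast, nothing is read from the count.

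Of the properties that the rule did not use directly, the number of flagged copies was close to that of other 2-copy pairs. In length and numbering the shares lay between those of all other pairs and of same-tissue pairs. The flag for a best bidirectional hit, which marks the entry that best matches the zebrafish gene in both directions, was on exactly 1 copy in 97 of the 105 pairs (92.4%, against 90.3% of the 1892 other pairs), on neither in 7 and on both in 1. Entry lengths, computed from counts and RPKM, had medians of 2007 bases for the shorter and 3437 bases for the longer copy. The longer copy exceeded the shorter by more than 2-fold in 24 pairs (22.9%, against 34.6% of other pairs). In brain and liver pairs this was so in 9 of 19 (47.4%), and in same-tissue pairs in 18.8%. Length is not free of the rule, since a limit on CPM, which is not divided by length, favours long entries. Of the 1892 other pairs, 1074 had both entries at 5 CPM or more in some tissue, as all same-tissue pairs did. The copies had consecutive numbers in the catalogue in 70 pairs (66.7%, against 56.0% of other pairs and 76.9% of same-tissue pairs). What the numbering follows is not given in the sources used here.

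The flagged copy was more often the brain copy in brain and skin pairs. Of 66 such pairs with 1 flagged copy, the flag was on the brain copy in 43 (65.2%) and on the skin copy in 23. In brain and liver pairs it was on the brain copy in 10 and on the liver copy in 8 of 18, and in liver and skin pairs on the liver copy in 6 and on the skin copy in 7 of 13. Of all brain copies 60% were flagged, against 47.4% of brain entries in same-tissue pairs, and of all skin copies 34.9%, against 46.4%. Of liver copies 44.1% were flagged, against 50% in same-tissue pairs. Both entries of a same-tissue pair count for the same tissue, and 393 of 415 such pairs had exactly 1 flagged entry. Their shares therefore lie near 50% by construction. Among all other entries within the limits, not only those of 2-copy genes, 78.3% were flagged for brain, 86.1% for liver and 77.9% for skin. These shares are counts over pairs and were not tested.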

How the data were processed

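Pairs of catalogue entries were described in 15 RNA-seq libraries, 5 each from brain, liver and skin, which the series describes as biological replicates. Per the labels' protocols, an Illumina TruSeq kit was used. The tools named, per the submitters' processing notes, are featureCounts 1.4.3-p1, TopHat2 2.0.6, Bowtie and CASAVA 1.8.2, with no step given for any. The sources used here give no build, annotation or strandedness. The authors deposited read counts per catalogue entry, taken as raw because all are integers and library totals differ (17.7 to 30.8 M). They also deposited RPKM values (reads per kilobase and per-million counted reads), and 60 further columns of that table, outside the 15 samples, were not used. The authors deposited a flag for best bidirectional hits, coded 0 or 1, with the counts. Genome-based tables, whose identifiers the files do not pair with the catalogue, were not used.

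CPM were computed from the deposited counts and the column totals. Entry lengths were those that count, total and RPKM imply, which gave back 100% of the RPKM values above 0 to a tolerance of 1e-06 of their size. Copy ratios used the deposited RPKM with 0.01 added. Counts were fitted with edgeR 4.0.16 in R 4.3.3: filterByExpr kept 16611 of 18311 entries, libraries were scaled by TMM, 1 quasi-likelihood fit held all 15 samples with a term per tissue, with Benjamini-Hochberg adjustment over all entries tested. DESeq2 1.42.0 served as an alternative. The procedure was also run on simulated data, in which all 3 tissues had the mean levels of skin apart from a limited set of changed entries. That run does not test the scaling between tissues as unlike as these. P-values weigh a difference against the spread between samples within tissues, with 1 estimate per entry shared by the 3 tissues. Floors cover counting error only.

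The members and lists were chosen with earlier results of these data known. Named pairs are, per combination of tissues, the first 8 by separation, of which 2 are given in full, and the most abundant ones by their lower copy. For the contrast of the partner's and the third tissue, the 5 largest called changes in each direction are named. Nofu_gene_3_0006263, and the entries carried by 1 library or lacking a switch, were chosen after their values were seen. Lists by gene symbol and tissue markers could not be applied, as 0 identifiers were found among the 38438 genes in the RefSeq table for NfurGRZ-RIMD1. Alternatives concerned scaling, the limits of the rule, low-count filters, the test, replicate numbers and single libraries.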

Additional observations from a re-analysis of the deposited data

Results flagged for a closer look

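In 7 of 36 groups of 5 libraries examined, a library lay far from the other 4, where chance gives about 1 in 20, or 1.8 groups. The groups are the named copies in their highest tissue, the summed shares of counts, and the numbers of pairs in which the copy of the first-named tissue led. The 1 in 20 holds for normally distributed values in independent groups, but CPM were not log-transformed and some groups share entries. It is therefore a rough guide, also for the numbers of pairs, which are whole numbers with ties. Nofu_gene_3_0003820 had 458 CPM in skin 7 against 65.3 to 99.4 CPM in the other skin libraries. Nofu_gene_3_0016371 had 367 CPM in liver 10 against 13.4 to 89.7 CPM in the other liver libraries. Nofu_gene_3_0019732 had 345 CPM in liver 15 against 87.9 to 124 CPM in the others. Nofu_gene_3_0019731 had 4665 CPM in skin 6 against 2733 to 3287 CPM in the others, and the summed skin copies of liver and skin pairs, which this entry dominates, had 0.549% of counts in skin 6 against 0.360% to 0.407%. Nofu_gene_3_0007738 had 29.3 CPM in skin 14 against 13.7 to 18.0 CPM in the others. Nofu_gene_3_0015517 had 441 CPM in brain 11 against 399 to 409 CPM in the others, a gap that is large only beside the close values of the rest.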

How the results depend on the processing

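The number of pairs was 118 with TMM-scaled CPM and 121 with DESeq2 size factors, but the combinations moved: brain and liver to 42 and 45 pairs, brain and skin to 44 with either, and liver and skin to 32 with either. The limits of the rule moved the counts by construction. At 20 CPM there were 67 pairs in all, with 46 in the combination of brain with skin and 8 in that of liver with skin. At 1.5-fold there were 210 in all, split as 37 (brain, liver), 150 (brain, skin) and 23 (liver, skin), and at 4-fold 30 in all, split as 5, 18 and 7. With every library of the highest tissue above all others, liver and skin kept 9 pairs. Switching pairs numbered 25 of 42, 39 of 44 and 21 of 32 in the same order when the rule used TMM-scaled CPM. They numbered 7 for liver and skin when all 5 libraries had to show it. These settings were chosen after seeing the data.

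Without TMM, 40 member entries were lower in the partner's tissue, and over all entries 11623 were higher in brain and 2189 in liver, 9022 in brain and 3799 in skin, and 1913 in liver and 9219 in skin, in the 3 comparisons. Leaving out each library in turn gave 100 to 112 pairs (17 to 22, 64 to 79 and 12 to 15 in the same order). With the 105 pairs kept as chosen, it gave 84 to 85 switching pairs. For the entries of those pairs, it gave 73 to 78 higher and 67 to 77 lower in the partner's tissue. Without TMM the balance of calls turned round for skin copies with a brain partner, to 37 higher and 9 lower in place of 18 and 35, and the median log2 of liver copies with a brain partner was 0.13 in place of -0.61. Single copies named kept their direction under the alternatives run. Of the alternative values of the main counts, 323 stayed within 1.5 times and 29 did not.

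Brain and liver share 5 replicate numbers and skin shares 2 with each. Deviations of same-numbered libraries correlated at 0.0828 to 0.185 for brain and liver, with 4 of 5 libraries closest to their own number, at 0.0304 to 0.261 for brain and skin and at 0.0795 to 0.0834 for liver and skin, and no label says that a number marks 1 fish. The sample titles join the same prefix and the number to a suffix for the tissue. The numbers were not taken to pair the samples, because not every correlation was over 0.1, a limit set by choice. The best matches of brain and liver are a hint from the data that the numbers may pair them. The main fit and its p-values therefore treat same-numbered libraries as independent, which they may not be. With the number as a replicate block, 64 entries were higher and 63 lower in the partner's tissue. Over all entries, the block gave 6379 higher in brain and 5805 in liver, 4701 in brain and 4807 in skin, and 3331 in liver and 4660.0 in skin. Counts under about 3 per library, as for several copies outside their highest tissue, limit folds there.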
